A study of Drosophila melanogaster with 8 samples.

Results

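The genes described here are 10 ecdysteroid kinase-like genes of Drosophila melanogaster, CG6834, CG6908, CG18765, CG31288, CG13659, CG31370, CG31436, CG11892, CG32195 and CG16898, out of 17411 genes in the deposited count files. They were taken by name, and the names had been chosen with the comparison of 9G8 RNAi with control in these libraries known. Levels and fold changes of the 10 are therefore a description and carry no test. RNA was sequenced from female cuticle with the fat body attached, at an age of 1 week. The 4 control libraries came from yolk-Gal4/w1118 females, which carry the driver over a w1118 chromosome and no hairpin, and the 4 knockdown libraries came from yolk-Gal4>9G8RNAi females, in which the same driver expresses a hairpin against the splicing factor 9G8. All 8 libraries thus share the driver, which is active in the adult female fat body, and the insertion of the hairpin and any difference of strain background cannot be told apart from its effect.

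Ecdysteroid kinase-like proteins are a large insect family related to choline and ethanolamine kinases. The family takes its name from a silkworm enzyme that adds phosphate to ecdysteroids, the moulting steroids, and so turns the active hormone into a conjugate that does not signal. Most of the fly genes have no known substrate, and phosphorylation of plant or synthetic toxins is a proposed role for some of them. The 10 genes have no individual role assigned in the sources used here, so they are ordered below by their place in the genome.

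The 8 libraries held between 25396063 and 36181492 counts each, and libraries of 1 genotype correlated at a Spearman rho of 0.934 to 0.959. Levels are given as CPM, counts scaled to library size with TMM factors. The 8 fat body markers, which include the yolk protein genes, summed to 5247 CPM or more in every library. The target gene x16, which encodes 9G8, was at 149.2 ± 123.8 CPM in the controls and 96.5 ± 74.1 CPM in 9G8 RNAi (SD, n = 4 each), with overlapping groups. Its log2 fold change was -0.63 (SE 0.63), and the adjusted p in the quasi-likelihood test of edgeR over 9846 genes was 0.862. The sign rested on control 3 (325.5 CPM), since the log2 fold change was 0.10 without it and 0.36 without control 3 and 9G8 RNAi 2 together, and it was 0.78 with the gut marker score as a covariate. Summed germline markers were highest in the same libraries as x16, namely control 3 (327.6 CPM), 9G8 RNAi 1 (273.0 against 198.6 CPM of x16) and control 4 (204.7 against 145.1). In 9G8 RNAi 2, x16 was lowest (34.7 CPM) and the germline sum was not (113.4 CPM). The part of germline RNA in the x16 level was not tested. A lower target level was thus not detectable in these bulk samples, and "9G8 RNAi" and "with the hairpin" below name the genotype. Summed markers of other cell types also differed between libraries. The 16 gut markers summed to 277.8 to 23109 CPM in the controls and 21646 to 56522 CPM with the hairpin, and 2 of the 15 tested were higher. The 5 hemocyte markers summed to 86.2 to 242.9 CPM in the controls and 45.5 to 88.0 CPM in 9G8 RNAi, and 2 of them were lower. In such bulk samples, fewer cells of a type and less RNA per cell cannot be told apart.

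Of the 10 genes, 8 lie on chromosome arm 3R, in 2 clusters of tandem family genes with no other gene between their ends. The small cluster runs from 11680972 to 11691799 (BDGP6, 10.8 kb) and holds CG6830, CG6834, CG6908 and CG18765, all on the minus strand. The large cluster runs from 25270209 to 25331203 (61.0 kb) and holds 26 family genes from CG11889 to CHKov2, of which CG11892 is the 6th in order and CG31288, CG13659, CG31370 and CG31436 are consecutive from the 14th to the 17th. The clusters are tight, with a median gap between neighbours of 329 bases in the small one and 480 bases in the large one. The remaining genes stand alone, CG32195 on 3L from 18112959 to 18119150 (plus strand) and CG16898 on 2R from 20003620 to 20005003 (minus strand). Counting was not complicated by overlapping exons for 9 of the 10, and CG32195 shared 223 exon bases with CG7341 on the same strand. How reads that match several of these related genes were counted is not given in the sources used here.

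All 10 genes were scarcer in each control library than in any 9G8 RNAi library. Over all 9846 tested genes, such a separation upwards was found for 2.96% and one downwards for 5.78%, but the 10 were listed with this contrast known and nothing is read from their count. The fitted log2 fold changes ran from 1.17 to 5.58 with a median of 2.01, beside a median of 0.01 over all tested genes. With all tested genes in 1 fit, 6 of the 10 passed an adjusted p under 0.05 upwards (edgeR), a share that is 0.995% over all tested genes (3.21% in either direction) and likewise supports nothing here. The 4 that did not pass were CG18765, CG11892, CG31370 and CG31436.

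**Figure D1:**
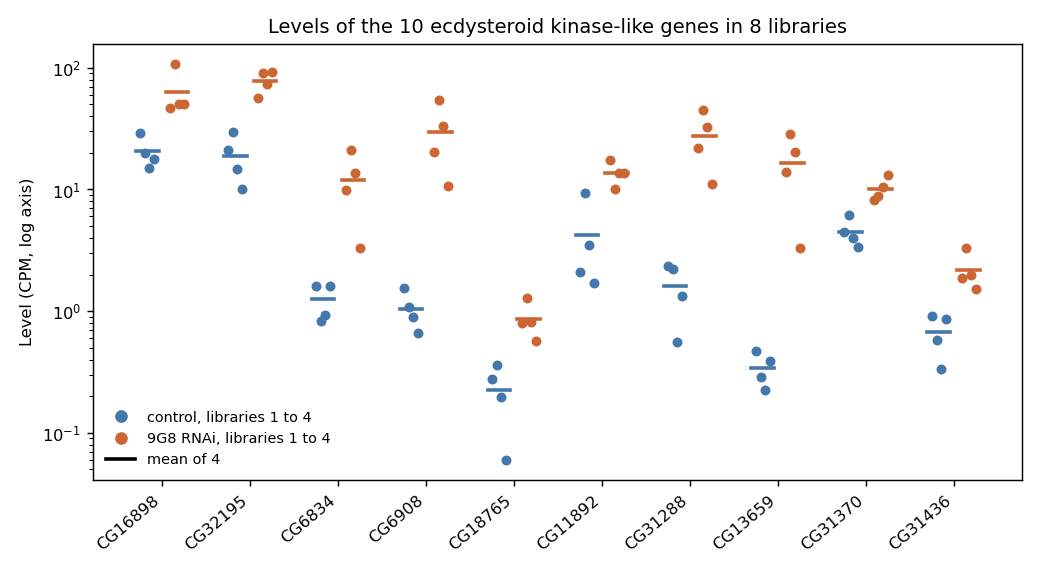
Level of each of the 10 genes (CPM, log axis) in the 4 control libraries (blue) and the 4 9G8 RNAi libraries (orange), with points from left to right for libraries 1 to 4 and a bar at the mean of 4. In every gene the lowest orange point lies above the highest blue point, and CG13659 and CG6908 show the widest separation.

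In the small cluster, CG6908 (FBgn0037936, 11688381 to 11690051) was at 1.54, 1.09, 0.895 and 0.656 CPM in control libraries 1 to 4 and at 20.5, 54.7, 33.1 and 10.6 CPM in 9G8 RNAi libraries 1 to 4. The lowest 9G8 RNAi library was thus several times above the highest control, and the log2 fold change was 4.83 (SE 0.56), or 28.5-fold. The gene before it in coordinate order, CG6834 (FBgn0037935, 11684672 to 11688133), was at 1.62, 0.833, 0.923 and 1.61 CPM in the controls and at 9.91, 21.2, 13.5 and 3.27 CPM in 9G8 RNAi (fitted log2 fold change 3.26, SE 0.56). CG6834 was highest in 9G8 RNAi 2 and lowest in 9G8 RNAi 4, as CG6908 was. CG18765 (FBgn0042110), at the other end, was scarce throughout, with 26 counts summed over controls and 129 summed over 9G8 RNAi. It was at 0.0597 to 0.362 CPM in the controls and 0.572 to 1.29 CPM in 9G8 RNAi (fitted log2 fold change 1.98, SE 0.53). The fourth gene of the cluster, CG6830, was not among the 10. It was at 2.81, 1.09, 0.252 and 2.39 CPM in the controls and 2.76, 7.89, 2.02 and 0.935 CPM in 9G8 RNAi, so the groups overlapped (fitted log2 fold change 1.07, SE 0.74, adjusted p = 0.7001), and without control 3 and 9G8 RNAi 2 together its log2 fold change was -0.14. CG6830 and CG6834 are also the long genes of this cluster, with 2781 and 2886 exon bases against 1439 in CG6908 and 1241 in CG18765.

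In the large cluster, the biggest differences lay in the divergent neighbours CG31288 and CG13659, which are transcribed away from each other with 1333 bases between them. CG13659 (FBgn0039319, 25300891 to 25302317, plus strand) was at 0.474, 0.290, 0.224 and 0.388 CPM in the controls, 41 counts in all, and at 13.9, 28.4, 20.4 and 3.33 CPM in 9G8 RNAi, 2580 counts in all. Its log2 fold change of 5.58 (SE 0.66) was the highest of the 10, although 9G8 RNAi 4 stood far below the other 3 libraries. CG31288 (FBgn0051288, 25297960 to 25299557, minus strand) was at 2.37, 2.21, 0.560 and 1.34 CPM in the controls and at 22.1, 44.97, 32.4 and 11.02 CPM in 9G8 RNAi (fitted log2 fold change 4.10, SE 0.57). Here too 9G8 RNAi 2 was highest and 9G8 RNAi 4 lowest. The next genes on the plus strand follow CG13659 closely, CG31370 after 146 bases and CG31436 after another 150, and differed far less between the genotypes. CG31370 (FBgn0051370) was at 3.37 to 6.16 CPM in the controls and 8.15 to 13.1 CPM in 9G8 RNAi (fitted log2 fold change 1.17, SE 0.35). CG31436 (FBgn0051436) was at 0.336 to 0.909 CPM in the controls and 1.51 to 3.32 CPM in 9G8 RNAi (fitted log2 fold change 1.70, SE 0.47). CG11892 (FBgn0039313, 25281548 to 25283237) lies apart from these 4 and came nearest to an overlap. It was at 2.09, 9.42, 3.53 and 1.70 CPM in the controls and at 17.6, 10.1, 13.7 and 13.7 CPM in 9G8 RNAi (fitted log2 fold change 1.72, SE 0.52), so that control 2 stood just under 9G8 RNAi 2. Without control 2 its log2 fold change was 2.49.

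Fold changes thus differed along the large cluster. The 5 listed genes in it were chosen with this contrast known, so nothing is read from the split between listed and other genes of the cluster. Of its 21 other genes, 17 had enough counts to be tested, and by edgeR's quasi-likelihood test with adjustment over all genes 0 of them were higher and 0 were lower (3 at an unadjusted p under 0.05). Over all tested genes 3.21% passed and 12.9% had an unadjusted p under 0.05, so counts this small are near the background. Their log2 fold changes ran from -0.56 to 1.26 with a median of 0.45. The genes bordering the consecutive 4 were CG31097 at a fitted log2 fold change of 1.26 (SE 0.46, adjusted p = 0.217) and CG10550 with 0.57 (SE 0.41, adjusted p = 0.728). CG31097, 181 bases from CG31288 and on the same strand, was at 0.420 to 0.978 CPM in the controls and 0.987 to 2.58 CPM in 9G8 RNAi, and was the only one of the 17 whose groups did not overlap. CG10560, the most abundant of the 17 per length, was at 31.1 ± 15.5 CPM in the controls and 49.1 ± 16.4 CPM in 9G8 RNAi (fitted log2 fold change 0.66, SE 0.43, adjusted p = 0.674). CHKov1, known for a natural transposon insertion linked to virus and insecticide resistance, was at 7.88 ± 3.12 and 10.8 ± 2.996 CPM (0.45, SE 0.37, adjusted p = 0.792), and CHKov2 at 2.63 ± 0.43 and 2.83 ± 0.21 CPM (0.10, SE 0.35, adjusted p = 0.967). CG11889 and CG11891 share 2922 exon bases on the same strand. CG11891 was listed at 0 in all libraries and CG11889 held 4 counts over the controls and 13 with the hairpin, so neither could be assessed.

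**Figure D2:**
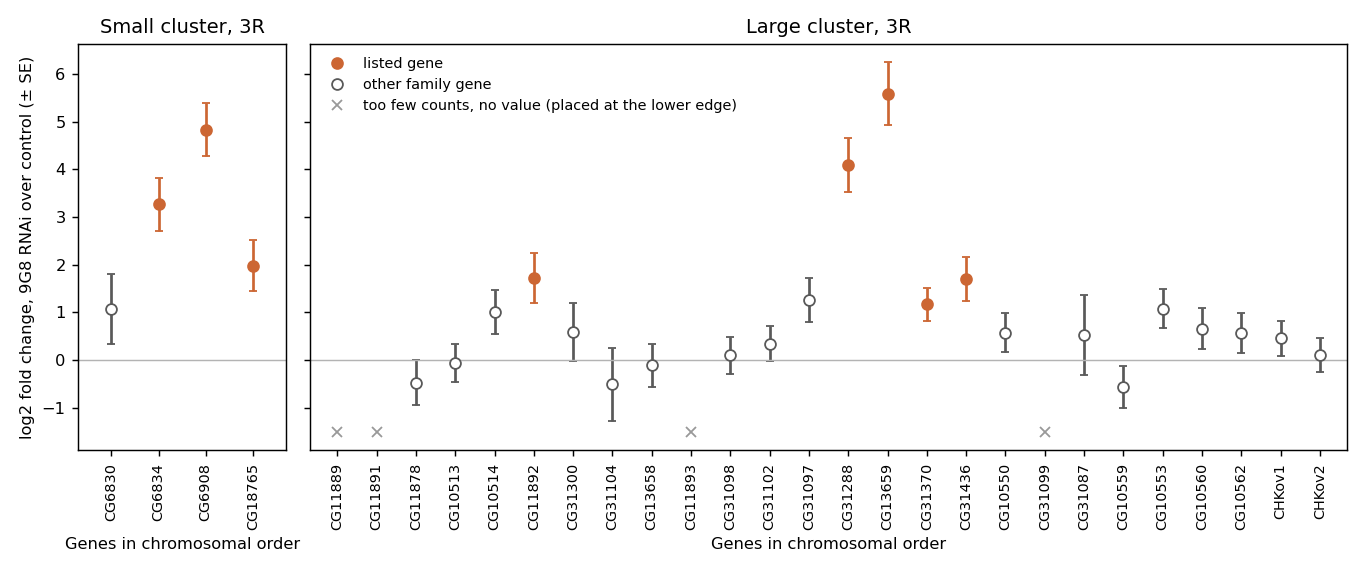
Log2 fold change of 9G8 RNAi over control with its standard error for each family gene of the small and the large cluster on 3R, in chromosomal order. Filled points are the listed genes, open points the other family genes, and crosses genes with too few counts. CG6908 (4.83) leads the small cluster, and CG31288 (4.10) and CG13659 (5.58) stand out from neighbours between -0.56 and 1.72.

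The genes that flank the clusters were counted as well, 3 on each side. Of these 12 genes 9 were tested and 0 passed in either direction by edgeR (2 at an unadjusted p under 0.05, against 12.9% of all tested genes), with log2 fold changes from -0.48 to 1.96. Ho, the heme oxygenase gene that borders CG6830, was at 55.0 CPM in the controls and 46.0 CPM in 9G8 RNAi (fitted log2 fold change -0.26, adjusted p = 0.921). The value of 1.96 belonged to Fer3, a transcription factor gene next to CG18765, which was below 1 CPM on average in both groups (adjusted p = 0.224). CR13656, which lies before CG11889, was the only 1 of the 9 whose groups did not overlap. It was at 0.42 to 0.54 CPM in the controls and 0.88 to 2.18 CPM in 9G8 RNAi (fitted log2 fold change 1.39, SE 0.44, adjusted p = 0.132). Over all tested genes 2.96% were apart upwards.

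The lone genes had the highest CPM of the 10 in both genotypes, before any correction for length. CG32195 (FBgn0052195) was at 21.1, 29.6, 14.8 and 10.1 CPM in the controls and at 56.1, 90.3, 73.4 and 91.5 CPM in 9G8 RNAi (fitted log2 fold change 2.04, SE 0.38). CG16898 (FBgn0034480) was at 29.2, 20.04, 15.1 and 17.9 CPM in the controls and at 46.5, 107.8, 50.3 and 50.6 CPM in 9G8 RNAi (fitted log2 fold change 1.63, SE 0.37). In CG16898 a single library, 9G8 RNAi 2, stood far above the others of its group, and without it the log2 fold change was 1.23. Without control 3 and 9G8 RNAi 2 together it was 1.13. CG32195 had no such library, and its highest 9G8 RNAi value was 1.63 times its lowest.

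Per kb of exon, the order of the genes was different in the genotypes. In controls CG16898 led with 15.5 ± 4.61 CPM per kb and lay clear of CG32195 with 3.81 ± 1.69, the next in order. That gap depends on length, since CG32195 is listed with 4961 exon bases and CG16898 with 1325. Before division by length these genes were close in controls, at 18.9 ± 8.41 and 20.6 ± 6.11 CPM. From CG32195 down, through CG31370, CG11892, CG31288, CG6908, CG31436, CG6834, CG13659 and CG18765 (0.180 ± 0.10 CPM per kb), each gene overlapped the next. CG13659 was next to last in controls at 0.264 ± 0.08 CPM per kb. In 9G8 RNAi, CG16898 was again first at 48.2 ± 22.2 CPM per kb. CG6908 came next at 20.7 ± 13.2 and CG31288 at 20.1, ahead of CG32195 at 15.7 ± 3.36, and CG13659 followed at 12.7 ± 8.16 CPM per kb. Neighbours in the 9G8 RNAi order overlapped except CG31436 (1.55 ± 0.57) and CG18765 (0.701 ± 0.24), which were last. Overlap here is between ranges over the libraries of a genotype and does not compare genes within a library. In each 9G8 RNAi library CG16898 was above CG6908, with more CPM on fewer exon bases (1325 against 1439). CG31288 and CG13659 therefore moved from the low end of the large cluster in controls to levels per length that few of its genes exceeded. CG10560 (35.9 CPM per kb) was above both, and CG10514 (15.3) was above CG13659.

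**Figure D3:**
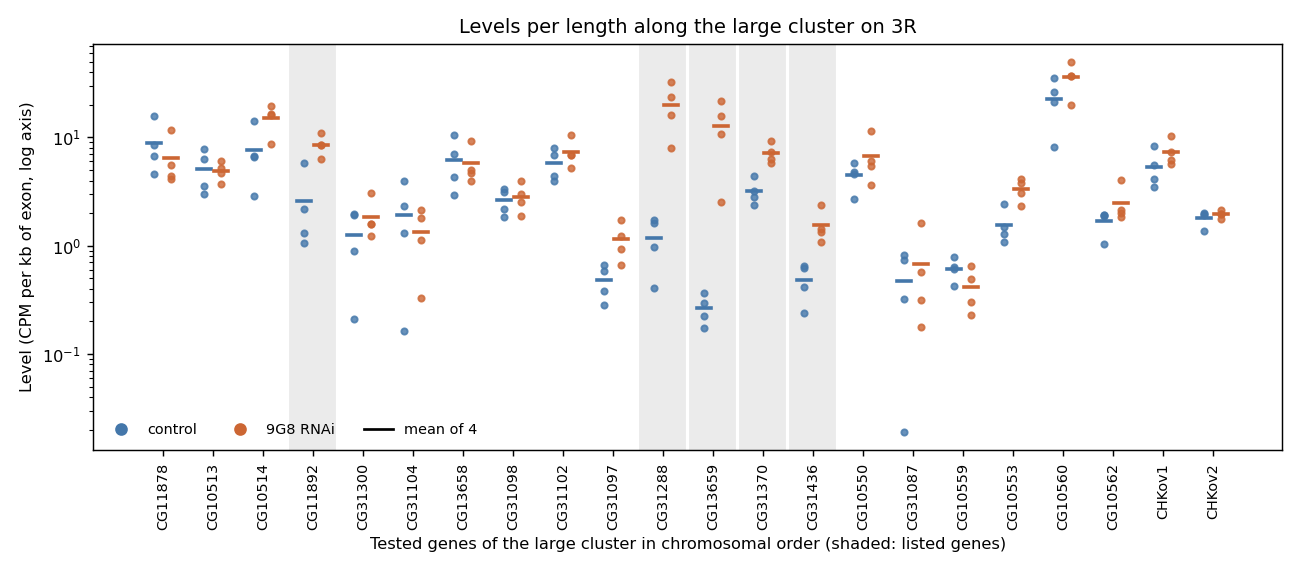
Levels per length (CPM per kb of exon, log axis) of the 22 tested genes of the large cluster in chromosomal order, with 4 control libraries in blue, 4 9G8 RNAi libraries in orange, bars at the means and the listed genes shaded. CG13659 goes from 0.264 to 12.7 and CG31288 from 1.18 to 20.1 CPM per kb, while most unshaded genes have overlapping groups.

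Outside the list, 41 further family genes were in the files, and 31 had enough counts to be tested. By edgeR 1 of them was higher and 0 were lower (10 at an unadjusted p under 0.05). Over all tested genes 0.995% were higher, 2.21% were lower and 12.9% had an unadjusted p under 0.05. The median log2 fold change was 0.53, beside 0.01 over all tested genes. The gene that rose was CG13813, a scarce gene on 3L outside the clusters. It was at 0.198, 0.145, 0.112 and 0.119 CPM in the controls and at 0.750, 1.01, 0.490 and 1.98 CPM in 9G8 RNAi (fitted log2 fold change 2.85, SE 0.54, adjusted p = 0.0136), higher in 4 of 4 libraries than in any control. It shares 5.44% of its exon bases with CG17233 on the opposite strand. The call of CG13813 was lost without control 2 (adjusted p = 0.0525) or 9G8 RNAi 2 (0.0505), without control 3 and 9G8 RNAi 2 together (0.122) and with the gut marker score as a covariate (0.167), and its adjusted p ran from 0.000541 to 0.167 over the alternatives. The juvenile hormone-inducible gene JhI-26 was at 5.03 ± 1.16 and 11.5 ± 3.77 CPM (fitted log2 fold change 1.19, adjusted p = 0.122), and 70.5% of its exon bases overlap a gene on the opposite strand. CG13360, the most abundant of the 51 genes per length, was at 623.5 ± 186.9 and 576.0 ± 264.3 CPM (-0.11, adjusted p = 0.968), and 22.5% of its exon bases overlap a gene on the opposite strand. In sum the 10 listed genes went from 53.3 ± 16.4 to 254.4 ± 81.5 CPM, and the 40 others without CG13360 from 257.2 ± 51.2 to 280.0 ± 22.1 CPM. That sum includes CG2004, which was at 89.8 ± 23.1 CPM in the controls and 43.6 ± 6.998 CPM with the hairpin, with groups apart (fitted log2 fold change -1.04, SE 0.31, adjusted p = 0.106). Without CG2004 too, the sum of the remaining 39 went from 167.4 ± 40.1 to 236.4 ± 18.8 CPM. CG33511, a scarce gene of the cluster on 2L, was likewise lower in each 9G8 RNAi library than in any control (-1.60, SE 0.47, adjusted p = 0.106). Of the 31 tested genes, these 2 were apart downwards and 5 were apart upwards, against 5.78% and 2.96% of all tested genes. The 5 were CG13813, JhI-26, CG31097, CG9498 (log2 fold change 0.81) and CG33301 (1.28). The family list was made with earlier results of these data known, so nothing is read from these counts.

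The 9G8 RNAi libraries did not stand in the same order for all 10 genes. In 6 of them, CG6834, CG6908, CG18765, CG31288, CG13659 and CG31436, the order from highest to lowest was library 2, 3, 1 and 4, and these 6 come from both clusters. The order counted was taken from CG13659, so its own match was set in advance. Libraries 3 and 1 were close in CG18765 (0.816 and 0.798 CPM) and in CG31436 (1.99 and 1.86 CPM). The same order was found in 6.36% of the 9846 tested genes, in 21 of the 98 genes that were higher, and in 3 of the 31 other tested family genes. With libraries scaled by their totals alone it was found in 4 of the 10. The difference between libraries was large for CG13659, at 8.55-fold from lowest to highest, and for CG6834, at 6.48-fold. CG31370 and CG11892 ran otherwise, with CG31370 highest in library 4 (13.1 CPM) and CG11892 lowest in library 2 (10.1 CPM), and their highest values were 1.61 and 1.74 times their lowest.

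Markers of other cells followed different orders among these 4 libraries. The gut marker sum was highest in 9G8 RNAi 4 (56522 CPM), the library in which CG13659, CG6908, CG31288 and CG6834 were lowest. CG31370 was highest in that library and stood in the order of the gut sums over all 4. So did the unlisted family genes CG5126, CG9497, CG31102, CG31380 and CG13360. CG32195 was highest in 9G8 RNAi 4 too, but nearly level with 9G8 RNAi 2 (91.5 and 90.3 CPM). The gut score gave another order, libraries 4 (8.94), 2 (8.01), 3 (7.87) and 1 (7.51). That was the order of CG32195 and not of CG31370. Among the controls, CG31288, CG13659, CG31436 and CG16898 were highest in control 1, where the gut sum was highest (23109 CPM), and lowest in control 3, where it was lowest (277.8 CPM). This was not particular to listed genes. Unlisted genes of the large cluster did the same, namely CG11878, CG31104, CG13658, CG31102, CG10550, CG10562, CHKov1 and CHKov2, and so did CG6830. The share over all tested genes was not counted. The part of gut RNA in these levels was not tested. With the gut score as a covariate, log2 fold changes of the 10 stayed positive, with a median of 1.81. In that fit 4 of the 10 passed, namely CG6834, CG6908, CG31288 and CG13659. Of all 9846 tested genes 252 passed, and 26 of them were higher. The 10 were listed with this contrast known, so nothing is read from the 4. The gut score overlapped little between genotypes (1.98 to 7.60 in the controls, 7.51 to 8.94 with the hairpin). This fit therefore cannot separate gut RNA from genotype. The sums of the 2 oenocyte markers (9471 CPM) and the 8 fat body markers (17781 CPM) were highest in 9G8 RNAi 2. Over all libraries fat body markers summed to 5247 to 9495 CPM in the controls and 10749 to 17781 CPM with the hairpin. Of the 8, 1 was higher and 1 lower. The fat body score, which weighs the 8 markers equally, did not follow these sums. It was 7.02 to 7.695 in the controls and 6.96 (9G8 RNAi 1) to 7.77 (9G8 RNAi 4) with the hairpin. Its difference was 0.07 (exact permutation test, p = 0.686, adjusted p = 0.784). The part of fat body RNA in the listed genes' levels was not tested. Markers of the Malpighian tubule, a tissue of detoxification, summed to 62.1 to 99.1 CPM in the controls and 52.5 to 102.2 CPM in 9G8 RNAi. Germline (7.27 to 327.6 CPM against 59.2 to 273.0), eggshell (9.63 to 3598 against 23.4 to 5055) and muscle markers (240.7 to 562.8 against 304.8 to 585.2) overlapped widely between controls and 9G8 RNAi.

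**Figure D4:**
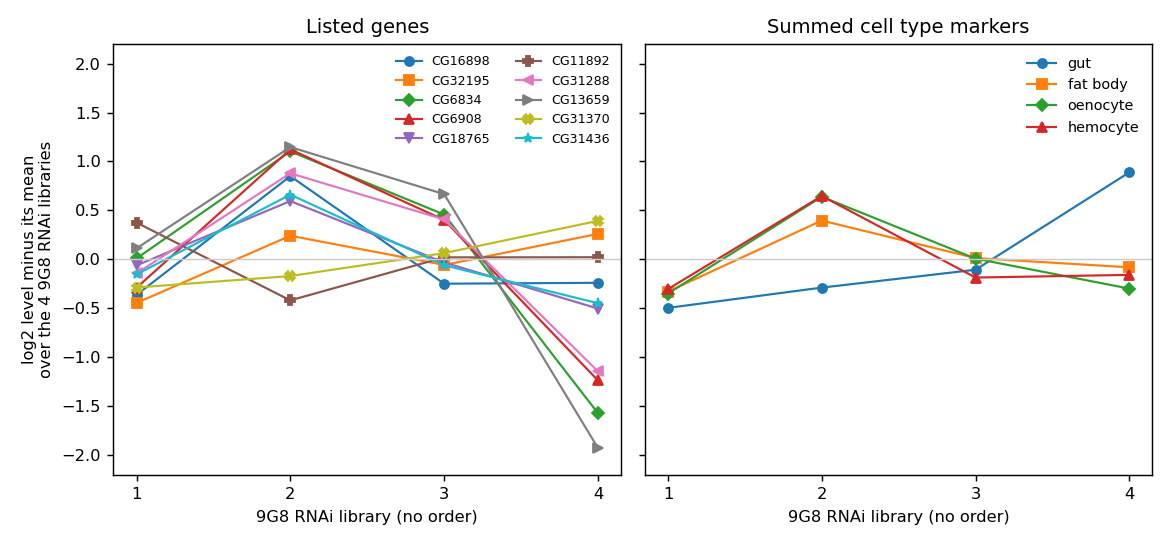
Level in each of the 4 9G8 RNAi libraries on a log2 scale relative to its mean over those libraries, for the 10 listed genes (left) and for summed markers of gut, fat body, oenocytes and hemocytes (right). Lines join values of 1 gene or marker set and the libraries have no order. CG13659, CG6834, CG6908 and CG31288 dip in library 4, where the gut sum peaks. CG31370 peaks there with it, and CG32195 is nearly level in libraries 4 and 2.

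For CG13659, CG6908 and CG31288, which had the highest fold changes, the genes with the nearest profiles were looked up. Likeness was the root mean square difference of centred log2 CPM over the 8 libraries among 6028 genes with a mean of at least 5 CPM, so it includes the difference between genotypes that the list was chosen on. Cyp12c1, a mitochondrial cytochrome P450, was nearest to each of CG13659 (0.96), CG6908 (0.63) and CG31288 (0.49), and Cyp6w1, a cytochrome P450, was next (0.97, 0.80 and 0.68). The third in order was GstE1, a glutathione transferase, for CG6908 (0.80) and CG31288 (0.70), and CG42365 for CG13659 (1.11). Cyp12c1 was at 11.1 ± 3.06 CPM in the controls and 127.5 ± 61.0 CPM in 9G8 RNAi. Among the 10 themselves CG13659 and CG6908 were closer to each other (0.49) than either was to any of these, although they lie in different clusters.

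Genes of ecdysteroid metabolism and response, the pathway that gives the family its name, were counted in the same fit, in which 3.21% of all tested genes passed and 12.9% had an unadjusted p under 0.05. The first list held 12 genes, those of ecdysteroid synthesis, breakdown and sterol supply and the nuclear receptor gene ftz-f1. Of these 9 were tested, and by edgeR 0 were higher and 0 lower (2 at an unadjusted p under 0.05). The hydroxylase gene sad was abundant, at 2531 ± 1140 CPM in the controls and 1063 ± 880.0 CPM in 9G8 RNAi (fitted log2 fold change -1.25, SE 0.56, adjusted p = 0.369), and it passed without 9G8 RNAi 4 (adjusted p = 0.0365, from a range of 0.0365 to 0.813 over the alternatives). Npc1a, a sterol transporter, was at 15.6 ± 5.91 and 14.1 ± 3.56 CPM (-0.15, adjusted p = 0.954). Of 11 response genes in the files 10 were tested, again with 0 higher and 0 lower (1 at an unadjusted p under 0.05). Both lists are short, so such counts cannot be told apart from the share over all genes. Among the tested genes of both lists, groups did not overlap in shd and Hr4. The hydroxylase gene shd was higher (log2 fold change 0.80, SE 0.36, adjusted p = 0.373) and Hr4 lower (-1.20, SE 0.39, adjusted p = 0.153). Over all tested genes 2.96% were apart upwards and 5.78% downwards. Eip75B, a nuclear receptor gene induced by ecdysone, was at 33.0 ± 4.51 and 35.4 ± 8.47 CPM (fitted log2 fold change 0.10, SE 0.29, adjusted p = 0.962), and Eip71CD, named as an ecdysone-induced gene, at 488.9 ± 228.7 and 300.8 ± 116.1 CPM (-0.70, SE 0.44, adjusted p = 0.628).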

How the data were processed

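The deposited files, 1 per library, list raw counts of reads for each gene, and per the file headers they have the featureCounts layout. Trimming with Trimmomatic 0.36, alignment with STAR 2.5.2b to BDGP6 and counting with featureCounts (Subread 1.5.2) are named per the submitters' processing notes. Strand setting, annotation release and the handling of multiply matching reads were not given in those sources.

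The labels do not say that libraries of a genotype came from separate cultures, so p-values cover only the spread between the libraries at hand. The test was run with edgeR 4.0.16 under R 4.3.3: filterByExpr by group (9846 of 17411 genes), TMM factors (0.758 to 1.54), the quasi-likelihood F test without covariates, and Benjamini-Hochberg adjustment over all tested genes, with a threshold of 0.05. The common biological coefficient of variation was 0.500. CPM were computed here with TMM factors and divided by the files' exon length for levels per kb. Standard errors were derived from the F statistic. The count test was tested on simulated data.

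The 10 genes, the gene lists, the rule for naming genes and the alternatives were chosen with earlier results of these data known. The list of 51 family genes was written from general knowledge, since the files give no family annotation. A cluster was a run of at least 3 family genes with gaps of at most 20 kb. Named were the 10 genes, the target, family genes that passed or lie in a cluster with a listed gene (of these the bordering, most abundant and best known), the 3 nearest profiles, and for other lists the genes that passed or else the 2 most abundant. JhI-26, CG13360, CG2004, CG33511, CG9498, CG33301, shd, Hr4 and the flanking genes were picked with their values in view. So were the unlisted family genes named beside the gut sums. A marker score is the mean log2 CPM (prior count 2) of a list, compared by an exact two-sided permutation test over 70 assignments, whose smallest p is 0.0286, with adjustment over 8 lists. No sequence was used here. Alternatives, run with DESeq2 1.42.0 and limma 3.58.1 (voom) among others, are described at the end.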

Additional observations from a re-analysis of the deposited data

Results flagged for a closer look

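In 4 of 60 sets of 4 libraries examined, 1 library stood far from the rest of its group by Dixon's criterion, where chance gives about 1 in 20. CG16898 was at 107.8 CPM in 9G8 RNAi 2 against 50.6 CPM in the next library. CG10562 was at 1.59 CPM in control 3 against 2.90 CPM in the next lowest control, and at 6.17 CPM in 9G8 RNAi 2 against 3.27 CPM in the next highest. CHKov2 was at 1.99 CPM in control 3 against 2.80 CPM in the next lowest control.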

How the results depend on the processing

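Over all alternatives run, 169 log2 fold changes of the 10 genes were recomputed, 0 reversed and 1 moved by more than the spread between libraries (CG16898 without control 3 and 9G8 RNAi 2 together, 1.13). Their median stayed between 1.81 and 2.11 under other scalings, filters, tools and covariates, and between 1.85 and 2.42 with a library left out. The 10 passed the threshold in 3 cases without control 3 and 9G8 RNAi 2 together and in 9 with DESeq2. Changed genes over the whole table numbered 316, against 523 with DESeq2, 96 without control 3 and 9G8 RNAi 2 together, and 162 (without 9G8 RNAi 2) to 504 (without 9G8 RNAi 4) with a library left out. It was 198 without control 1, 187 without control 2 and 179 without 9G8 RNAi 3, and with the gut score as a covariate 26 of 252 were higher. Family genes outside the list that changed numbered 1 (CG13813), but 0 with the gut covariate and when control 3 and 9G8 RNAi 2 were both left out. The number was 0 to 2 with a library left out, the second being CG31974 without 9G8 RNAi 4. With a mean CPM of at least 1 it was also 0, because that filter removed CG13813 before the test. The labels do not say whether the replicate numbers pair the libraries. Deviations of same-numbered libraries correlated at -0.59 to -0.02 over 4 pairs, and 0 of 8 libraries correlated best with their own number. So few pairs cannot show whether same-numbered libraries were handled together. A replicate block left 141 changed genes, 0 of the family outside the list and 4 of the 10, and CG13813 had a log2 fold change of 2.69 (adjusted p = 0.0739).

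Of the marker scores, gut differed by 2.53 on the log2 scale (exact permutation test, p = 0.0571, adjusted p = 0.229), with a range of 1.24 (without control 3) to 3.22 with a library left out, and hemocyte by -1.33 (p = 0.0286, adjusted p = 0.229). The fat body difference was 0.07 and ran from -0.128 to 0.219 with a library left out. That of muscle was 0.06, ran from -0.428 to 0.366 with a library left out, and was -0.00898 with RLE factors. The number of clusters was 3 at either gap limit. The search for further family genes by protein similarity was not run, since no sequence was used here. Scarce genes limit what depth allows: CG18765 and CG13659 held 26 and 41 counts over the controls.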
